A study of Mus musculus with 6 samples.

Results

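The Notch receptor, ligand and target genes Notch1, Notch2, Notch3, Jag1, Jag2, Lfng, Rbpj, Hes1 and Hey1 were followed in bulk RNA-seq of sorted mouse lung epithelium. The members were chosen by gene symbol, all 9 were found among the 22239 genes of the deposited table, and all 9 passed the filter on low values. The samples were 3 populations of primary cells from mice aged 8 weeks, with 2 samples in each, sorted by reporter fluorescence after CD31- and CD45-bearing cells had been depleted from the lung suspension. Bronchioalveolar stem cells (BASC) carried both CCSP-mCherry, a reporter for Scgb1a1 (the secretoglobin made by Club cells), and SPC-YFP, a reporter for Sftpc (surfactant protein C). Alveolar type 2 (AT2) cells, the surfactant-producing cells of the alveolus, were sorted as SPC-YFP+. Club cells, which line the bronchioles and secrete, were sorted as CCSP-mCherry+. The labels name no strain, treatment or further allele, and do not state whether the 2 samples of a population are from different animals; the p-values therefore reflect the spread between these samples, which may be technical.

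Notch is a receptor that is cut when a Jagged or Delta-like ligand on a neighbouring cell binds it. The released intracellular part joins the DNA-binding protein Rbpj and switches on repressor genes of the Hes and Hey families, while fringe enzymes such as Lfng add sugars to the receptor and change how it responds to each ligand. In the airway, Notch signalling is best known for holding cells in the secretory state of Club cells and away from the ciliated state.

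The values are read counts per gene that the authors normalised and rounded to whole numbers. By the spacing of the low values, the 6 libraries held an estimated 10122640 to 18205636 reads over the genes of the table. Differences were tested with limma on log2(value + 1) over 17721 genes, and a gene was called at a Benjamini-Hochberg adjusted p under 0.05. The marker lists went with the sort labels: the summed values of 14 AT2 markers lay between 1412850 and 1528824 in the BASC and AT2 samples and at 97423 and 118444 in Club cells, and those of 12 Club markers at 105766 and 128072 in the BASC samples, 21013 and 23833 in the AT2 samples and 1207084 and 1191937 in the Club samples. Markers of ciliated cells also differed, and 11 of 12 were higher in both Club samples than in the other 4. The exception was Mcidas, with 59 and 82 in the BASC samples, 55 and 11 in the AT2 samples and 47 and 15 in the Club samples. The 12 ciliated markers summed to between 2054 and 2605 in the BASC and AT2 samples and to 9285 and 8941 in Club cells, where Foxj1, the regulator of motile cilia, had 795 and 825 and Sntn 138 and 140; Sntn was listed at 0 in the other 4 samples. The tubulin gene Tubb4b held most of the sum in BASC (1973 and 2216) and AT2 (1696 and 1992) and had 2734 and 2753 in Club cells. The part of ciliated cells in the differences from Club cells below was not tested. In bulk RNA, fewer cells of a type and less RNA per cell cannot be told apart.

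Notch1, Notch2 and Notch3 had their highest means in Club cells. Gene positions below are those of the deposited table (mm10, GRCm38). Notch2 (ENSMUSG00000027878, chr3:98013538-98150361, + strand) had normalised read counts of 10573 and 10158 in Club cells, 4885 and 5533 in BASC and 4003 and 4693 in AT2. Both Club samples lay well above the other 4, and the BASC samples just above the AT2 samples. Notch2 was 1.99-fold lower in BASC than in Club cells (log2 fold change -0.995 ± 0.12, SE, n = 2 per group, adjusted p = 0.00295) and 2.38-fold lower in AT2 (-1.26 ± 0.12, adjusted p = 0.000600). BASC and AT2 were not called different (0.26 ± 0.12, adjusted p = 0.428). The BASC call was lost without a mean-variance trend in limma (adjusted p = 0.109). Notch2 shares 541 exon bases with Gm42820, a predicted gene on the same strand, which had 329 and 445 in Club cells and between 79 and 153 in the other samples.

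Notch1 (ENSMUSG00000026923, chr2:26457903-26503822, - strand) had 2806 and 3469 in Club cells, 2338 and 1815 in BASC and 1675 and 1454 in AT2. The 3 populations did not overlap, with BASC between the others. AT2 were 2.01-fold lower than Club cells (log2 fold change -0.999 ± 0.18, adjusted p = 0.00905), and the steps on either side of BASC were not called (-0.60 ± 0.18 against Club cells, adjusted p = 0.0816, and 0.40 ± 0.18 against AT2, adjusted p = 0.402). The AT2 call was lost without AT2 replicate 2 (adjusted p = 0.0610) and without the trend (0.109). The step from Club cells to BASC passed with adjusted p = 0.0464 in a stricter filter, 0.0314 after quantile normalisation and 0.0348 with protein-coding nuclear genes alone, rescaled to equal totals.

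Notch3 (ENSMUSG00000038146, chr17:32120820-32166880, - strand) differed most among the receptors. It had 1377 and 1623 in Club cells, 71 and 65 in BASC and 15 and 56 in AT2, so that the Club samples stood far above the other 4. Notch3 was 22.1-fold lower in BASC than in Club cells (log2 fold change -4.44 ± 0.61, adjusted p = 0.00453) and 42.3-fold lower in AT2 (-5.63 ± 0.61, adjusted p = 0.000937), while BASC against AT2 was not called (1.19 ± 0.61, adjusted p = 0.471). The call in BASC was narrowly lost without BASC replicate 1 (adjusted p = 0.0503) or BASC replicate 2 (adjusted p = 0.0541). Of the 12 ciliated markers above, 11 were likewise highest in both Club samples, and their part in the result was not tested. Notch3 is also known from mural cells, the pericytes and smooth muscle cells of vessels. Of 12 mural and mesenchymal markers, Pdgfrb, Rgs5 and Tagln were not found in the deposited table. The other 9 summed to 64 and 128 in Club cells, 130 and 38 in BASC and 367 and 95 in AT2. Acta2 had 5 and 10 in Club cells, and Des had 0 in both Club samples. Transcripts antisense to Notch1 (0610009E02Rik) and Notch3 (Gm17276) reached at most 10 and 8. The remaining receptor, Notch4, known from endothelium, reached 106 in AT2 replicate 1 and between 1 and 9 in the other samples, and was not tested.

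The promoters of Notch2 and Notch3 are shown because these receptor genes were called between Club cells and both other populations. The sequences are the 250 bases before the start, from RefSeq (GRCm38.p6), where 7 of the 9 members were matched; Hes1 and Hey1 were not. They were searched on both strands for TGGGAA, the core of the Rbpj site, for CACGTG, an E-box bound by Hey proteins, and for CACGAG, an N-box bound by Hes1, and matches are in capitals. Of 15906 promoters of genes in the table, 21.1% held TGGGAA, 7.69% CACGTG and 6.63% CACGAG. The Notch2 promoter (chr3:98013288-98013537, + strand) held none of these letters, and the Notch3 promoter (chr17:32166891-32167140, - strand) held 1 CACGAG, 204 bases before the start.
Notch2 promoter: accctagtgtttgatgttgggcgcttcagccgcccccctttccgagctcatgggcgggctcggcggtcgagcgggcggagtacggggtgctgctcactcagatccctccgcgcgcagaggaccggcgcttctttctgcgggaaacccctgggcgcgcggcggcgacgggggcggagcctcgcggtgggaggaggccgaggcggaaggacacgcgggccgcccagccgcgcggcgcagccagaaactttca
Notch3 promoter: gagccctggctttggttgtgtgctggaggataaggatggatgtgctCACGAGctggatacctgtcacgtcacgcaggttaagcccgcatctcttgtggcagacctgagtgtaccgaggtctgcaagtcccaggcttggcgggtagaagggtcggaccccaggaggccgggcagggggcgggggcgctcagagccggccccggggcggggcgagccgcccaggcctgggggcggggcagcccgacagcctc

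**Figure D1:**
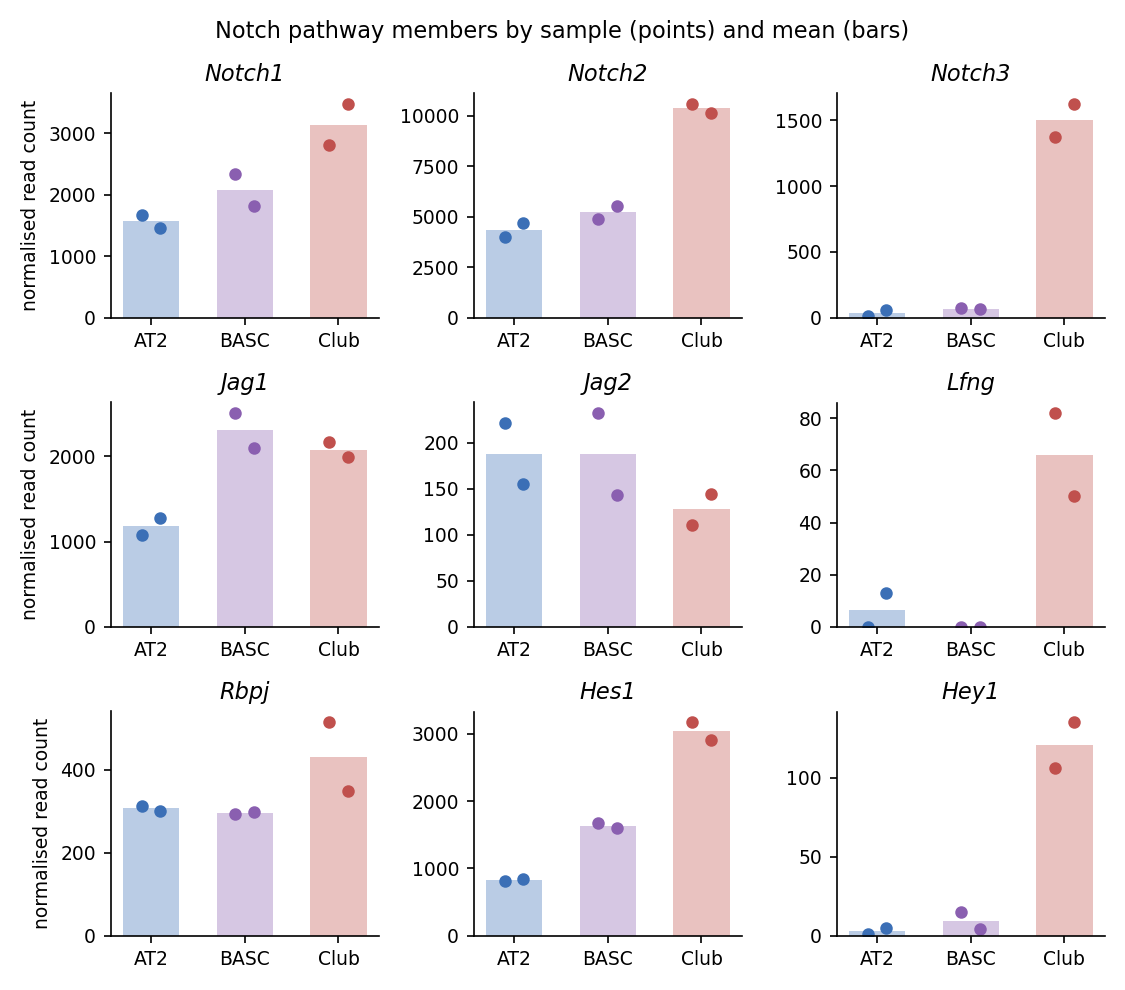
Normalised read counts of the 9 members (y axis, from 0, a separate scale per gene) in AT2, BASC and Club cells; points are the 2 samples of a population and bars their mean. Notch2, Notch3, Hes1 and Hey1 stand highest in both Club samples, and Jag1 is lowest in both AT2 samples (1078 and 1280).

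Of the Jagged ligands, Jag1 was lower in AT2 than in Club cells and Jag2 was not called in any comparison. Jag1 (ENSMUSG00000027276, chr2:137081456-137116644, - strand), the Jagged ligand with the higher level here, had 2509 and 2102 in BASC, 2173 and 1989 in Club cells and 1078 and 1280 in AT2. BASC overlapped Club cells, and both AT2 samples lay below the other 4. Jag1 was 1.77-fold lower in AT2 than in Club cells (log2 fold change -0.82 ± 0.16, adjusted p = 0.0119). BASC against Club cells was not called (0.14 ± 0.16, with a 95% confidence interval from -0.23 to 0.51, adjusted p = 0.650), and the higher mean in BASC than in AT2, 1.96-fold, narrowly missed the threshold (0.97 ± 0.16, adjusted p = 0.0588). That difference passed in 4 of 16 alternatives, with adjusted p = 0.0181 in a stricter filter and 0.0234 to 0.0400 in the others. The call between AT2 and Club cells was lost without AT2 replicate 1 (adjusted p = 0.0586) or Club replicate 1 (adjusted p = 0.0772) and without the trend (0.133).

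Jag2 (ENSMUSG00000002799, chr12:112907819-112929776, - strand), the other Jagged ligand, had 232 and 143 in the BASC samples, 221 and 155 in the AT2 samples and 111 and 144 in the Club samples. The replicates of BASC and AT2 were spread as widely as the populations, and no comparison was called (adjusted p from 0.450 to 1). Of the Delta-like ligands, Dll1 had 54 and 143 in the BASC samples, 8 and 30 in the AT2 samples and 4 and 7 in the Club samples. Both BASC samples lay highest, but the difference from Club cells was not called (log2 fold change 3.81 ± 1.09, adjusted p = 0.0698). Outside BASC only AT2 replicate 2 reached the filter minimum of 10, so Dll1 passed the filter only through the BASC samples. This set its direction against Club cells, and the values of that difference are a description. Dll4, a ligand known from vessels, ranged from 5 to 55 with overlap of the populations, and Dlk2 had 24 in BASC replicate 1 and at most 4 in the other samples. Dll3 and Dlk1 were not found in the deposited table.

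Lfng (ENSMUSG00000029570, chr5:140607320-140615545, + strand), the lunatic fringe glycosyltransferase, had 82 and 50 in Club cells, 0 and 13 in AT2 and 0 in both BASC samples. Outside Club cells only AT2 replicate 2 reached the filter minimum of 10, so Lfng passed the filter only through the Club samples. This set its direction against Club cells, and the values of that difference are a description. Lfng was at least 19.5-fold lower in BASC than in Club cells, against a floor of 3 reads per library averaged over BASC (adjusted p = 0.0406). AT2 against Club cells was not called (log2 fold change -4.12 ± 1.45, adjusted p = 0.0990). The BASC call rested on few reads and was lost without any 1 of the 2 BASC or 2 Club samples (adjusted p from 0.130 to 0.388) and with a pseudocount of 0.5 (adjusted p = 0.0504), no filter (0.0580) or no trend (0.0898). Of the other fringe genes, Rfng had between 236 and 508 in the 6 samples and was not called, and Mfng, not tested, reached 9 in AT2 replicate 1 and was listed at 0 elsewhere. The Lfng promoter (RefSeq, GRCm38.p6, chr5:140607091-140607340, + strand) is shown because it was the member promoter with matches to all 3 motifs. TGGGAA began 108 bases before the start and, on the opposite strand, 135 bases before it; the first of these overlaps the CACGTG that began 112 bases before the start, and CACGAG lay on the opposite strand, 181 bases before it.
Lfng promoter: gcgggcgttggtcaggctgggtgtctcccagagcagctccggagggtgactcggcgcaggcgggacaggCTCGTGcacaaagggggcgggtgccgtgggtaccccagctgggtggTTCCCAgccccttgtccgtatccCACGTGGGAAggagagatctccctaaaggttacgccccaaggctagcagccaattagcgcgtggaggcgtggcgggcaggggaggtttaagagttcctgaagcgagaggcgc

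Rbpj (ENSMUSG00000039191, chr5:53555834-53657362, + strand), the DNA-binding partner of cleaved Notch, had 293 and 298 in the BASC samples, 312 and 301 in the AT2 samples and 514 and 348 in the Club samples. The Club samples lay above the others but differed widely from each other, and no comparison was called (adjusted p from 0.308 to 0.968). Both RefSeq start sites of Rbpj had TGGGAA within the 250 bases before them, 1 of them on both strands. The stretches before the 2 starts overlap. Their opposite-strand match, 65 bases before 1 start and 205 bases before the other, is the same site.

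Hes1 (ENSMUSG00000022528, chr16:30065340-30067796, + strand) was ordered Club cells, BASC, AT2. This repressor, a direct Notch target, had 3171 and 2911 in Club cells, 1667 and 1599 in BASC and 816 and 844 in AT2. The populations did not overlap, and the replicates of each lay closer to each other than the populations. Hes1 was 1.86-fold lower in BASC than in Club cells (log2 fold change -0.90 ± 0.13, adjusted p = 0.00598), 1.97-fold higher in BASC than in AT2 (0.98 ± 0.13, adjusted p = 0.0283) and 3.66-fold lower in AT2 than in Club cells (-1.87 ± 0.13, adjusted p = 0.000117). The last of these calls held in all 16 alternatives (adjusted p from 1.63e-05 to 0.0147). The call between BASC and AT2 was lost without either BASC sample (adjusted p = 0.180 and 0.240), either AT2 sample (0.0917 and 0.0865) or Club replicate 1 (0.0533), at log2 fold changes from 0.95 to 1.01, and also without the trend (0.249) or with only BASC and AT2 fitted (0.0668). The call between BASC and Club cells was lost without Club replicate 1 (adjusted p = 0.0671) or the trend (0.117).

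Hey1 (ENSMUSG00000040289, chr3:8663359-8667256, - strand), the other target, had 106 and 135 in Club cells, 15 and 4 in BASC and 1 and 5 in AT2. Club cells lay above the other samples, and BASC overlapped AT2. Outside Club cells only BASC replicate 1 reached the filter minimum of 10, so Hey1 passed the filter only through the Club samples. This set its direction against Club cells, and the values of those differences are a description. Hey1 was 40.2-fold lower in AT2 than in Club cells (log2 fold change -5.12 ± 1.13, adjusted p = 0.0212). The 12.7-fold lower mean in BASC was not called (-3.75 ± 1.13, adjusted p = 0.0838), and it passed with a pseudocount of 5 (adjusted p = 0.0310) and a stricter filter (0.0386). The AT2 call was lost without AT2 replicate 1 (adjusted p = 0.0695) or either Club sample (0.159 and 0.199).

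**Figure D2:**
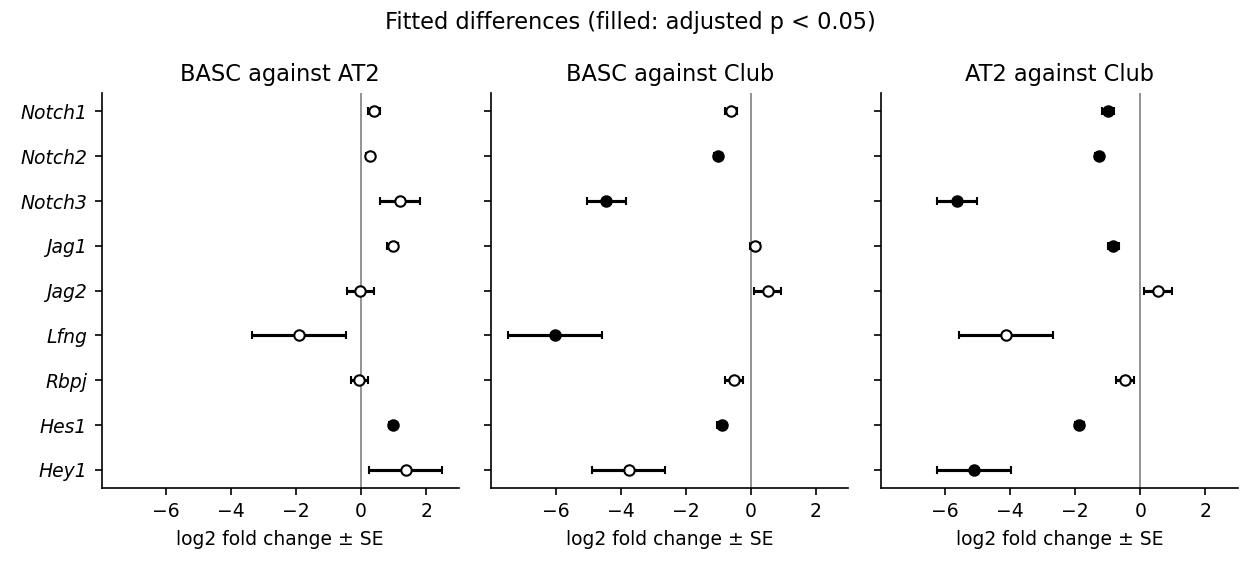
Fitted log2 fold change (x axis, first population minus second) with its SE for each member (y axis) in the 3 pairwise comparisons, filled where the adjusted p was under 0.05. Filled points are at or below -0.82 in both comparisons with Club cells, and Hes1 (0.98) is the filled point between BASC and AT2.

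Counted over the members, 6 of 9 were lower in AT2 than in Club cells and none higher, where 18.1% of all 17721 genes tested were called, 9.71% lower and 8.42% higher in AT2. The members' median log2 fold change was -1.26, against -0.10 for all genes. In BASC, 4 of 9 were lower than in Club cells and none higher, where 11.2% of all genes were called, 5.42% lower and 5.77% higher in BASC, with a median of -0.90 against -0.10 for all genes. Between BASC and AT2, Hes1 alone was called among the 9, where 0.632% of all genes were called, 0.553% higher and 0.079% lower in BASC, and the members' median was 0.40 against 0.00. The comparisons share samples and are not independent of each other. Lfng and Hey1 reached the filter minimum in 3 of 6 samples, in each case both Club samples and 1 other. Both thus passed the filter only through the Club samples, which set their direction against Club cells. Lfng is among the 4 members counted in BASC and Hey1 among the 6 counted in AT2, and their part in these counts is a description.

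The position of BASC between the other populations was measured for the 6 members called between AT2 and Club cells, as a percentage of the log2 step that leads from the Club mean to the AT2 mean. Notch2 lay at 79.1% of the way from Club cells to AT2, Notch3 at 78.9% and Hey1 at 73.3%. Notch1 lay at 59.9% and Hes1 at 47.9%. Jag1 lay at -17.4%, which is beyond the Club level. A test of BASC against the midpoint of AT2 and Club cells called 0 of 9 members with limma. Of all genes, 1.61% were called, 1.29% higher and 0.322% lower in BASC. At an unadjusted p under 0.05 there were 1 member higher (Jag1) and 3 lower (Notch2, Notch3 and Lfng). Lfng passed the filter only through the Club samples and was at 0 in BASC, so its part in this count is a description. Of all 17721 genes tested, 2677 were under that unadjusted threshold, 1305 higher and 1372 lower in BASC. Hes1 lay 0.04 ± 0.11 log2 units from the midpoint (95% confidence interval -0.23 to 0.31, adjusted p = 0.909) and Jag1 0.56 ± 0.14 above it (adjusted p = 0.126).

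Levels of different genes were compared per kilobase of merged exons (GENCODE M21, GRCm38), which counts exons of all annotated isoforms. On this scale Notch2 was the highest receptor in all 6 samples, at a mean of 961 normalised reads per kilobase in Club cells, 483 in BASC and 403 in AT2. Notch1 followed with 220, 146 and 110. Notch3 reached 185 in Club cells, with 170 and 201 in the samples, close to the 197 and 244 of Notch1, but 8.41 in BASC and 4.39 in AT2. Jag1 exceeded Jag2 in every sample, with means of 396 and 26.9 per kilobase in BASC. Hes1 had the highest mean of all members in each population, at 1493 in Club cells, 802 in BASC and 407 in AT2, although Notch2 exceeded it in AT2 replicate 2 (435 against 414), and Hey1 stood at 36.9, 2.91 and 0.919.

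**Figure D3:**
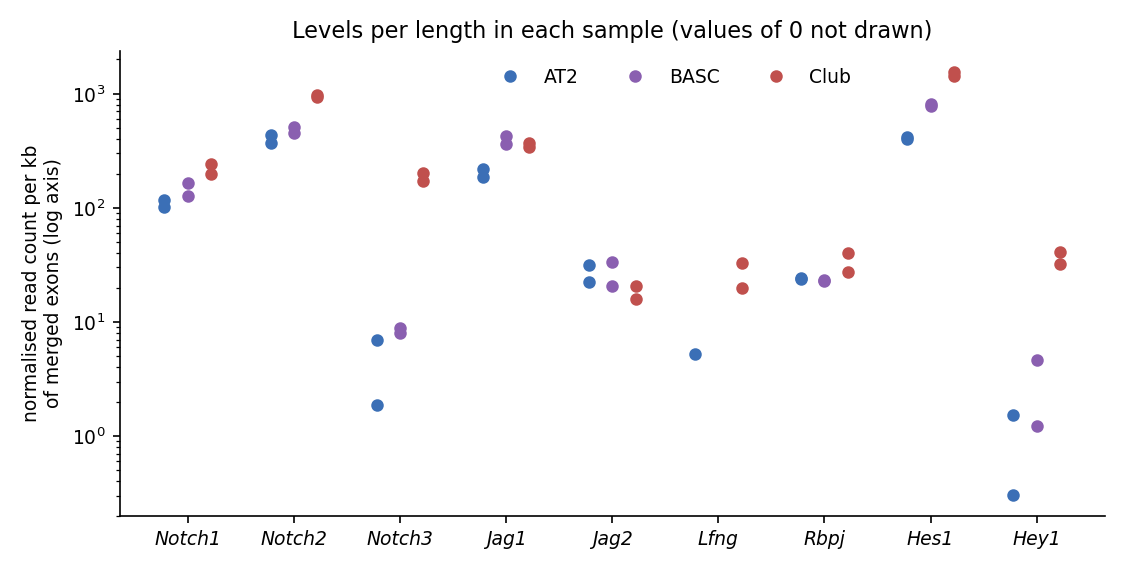
Normalised read count per kilobase of merged exons (y axis, log scale) for each member in each of the 6 samples, coloured by population; values of 0 (Lfng in 3 samples) are not drawn. Hes1 and Notch2 are the highest genes, and Notch3 is the receptor whose Club samples (170 and 201) stand apart from the others (at most 8.78).

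Other genes of the pathway were taken from a list of 73 genes grouped by role, of which 64 were tested. Between BASC and AT2, limma called none of them, where 0.632% of all genes were called. At an unadjusted p under 0.05 there were 12 of the 64, 5 higher and 7 lower in BASC. Of all 17721 genes tested, 2336 were under that unadjusted threshold, 1257 higher and 1079 lower in BASC. Against Club cells, 4 were higher and 4 lower in BASC, or 12.5% where 11.2% of all genes were called. Between AT2 and Club cells, 7 were higher and 7 lower in AT2, or 21.9% where 18.1% of all genes were called. The medians of the 64 were -0.04 and -0.05 in these comparisons, against -0.10 for all genes in both. The genes counted as lower include Hey2 and Heyl in both comparisons, which passed the filter only through the Club samples. Those counted as higher in AT2 include Hes3, which passed it only through the AT2 samples.

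Among DNA-binding factors and coactivators, Rbpjl (ENSMUSG00000017007, chr2:164403194-164415448, + strand) went the other way from the member receptors. This paralog of Rbpj, best known as a subunit of a pancreatic transcription complex, had 2570 and 2875 in the BASC samples, 3048 and 3751 in the AT2 samples and 73 and 88 in the Club samples. Rbpjl was 33.8-fold higher in BASC than in Club cells (log2 fold change 5.07 ± 0.19, adjusted p = 1.52e-05) and 42.2-fold higher in AT2 (5.38 ± 0.19, adjusted p = 6.92e-06), and both calls held in all 16 alternatives. It was also the 1 gene of the 64 called away from the midpoint of AT2 and Club cells, 2.38 ± 0.16 above it (adjusted p = 0.000942), a call that was lost without either BASC sample (0.0769 and 0.0906). Rbpjl shares 149 exon bases with Matn4, a matrix protein gene on the opposite strand, which had 2028 and 2081 in the BASC samples, 2265 and 2358 in the AT2 samples and 16 and 6 in the Club samples. The strand setting of the counting is not given in the sources used here, and the part of shared reads was not tested. The Rbpjl promoter (RefSeq, GRCm38.p6, chr2:164402944-164403193, + strand), shown beside that of Lfng because its gene moved in the opposite direction, also held TGGGAA, 104 bases before the start.
Rbpjl promoter: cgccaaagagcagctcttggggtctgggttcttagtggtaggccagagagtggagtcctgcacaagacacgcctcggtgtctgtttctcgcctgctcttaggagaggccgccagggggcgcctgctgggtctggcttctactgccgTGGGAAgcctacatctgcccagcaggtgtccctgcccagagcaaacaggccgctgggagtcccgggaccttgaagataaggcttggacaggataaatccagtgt

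Maml3, a coactivator of the Mastermind family, had 1892 and 1788 in the BASC samples, 2630 and 2157 in the AT2 samples and 1017 and 836 in the Club samples. It was higher than in Club cells in BASC (1.99-fold, adjusted p = 0.0106) and in AT2 (2.58-fold, adjusted p = 0.00163). Its relative Maml2 had 360 and 332 in the BASC samples, 225 and 248 in the AT2 samples and 632 and 581 in the Club samples, and was 2.56-fold lower in AT2 than in Club cells (adjusted p = 0.00659). The 2 Mastermind genes thus stood in opposite order across the populations. The Maml3 call in BASC was lost without either BASC sample or Club replicate 2 (adjusted p from 0.0550 to 0.0718), and the Maml2 call without either Club sample (0.0505 and 0.0782).

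Of 16 corepressor genes, 2 were called against Club cells in both BASC and AT2 (12.5%, where 11.2% and 18.1% of all genes were called). Tle2, a Groucho-family corepressor recruited by Hes proteins, had 2040 and 1916 in the BASC samples, 2692 and 2679 in the AT2 samples and 736 and 800 in the Club samples. Relative to Club cells, its mean was higher by 2.58-fold in BASC (adjusted p = 0.000956) and by 3.50-fold in AT2 (adjusted p = 0.000138). Tle3, of the same family, had 729 and 1045 in the BASC samples, 544 and 464 in the AT2 samples and 1616 and 1557 in the Club samples. It was lower than in Club cells in AT2 (3.15-fold, adjusted p = 0.00212) and in BASC (1.79-fold, adjusted p = 0.0445). The BASC call of Tle3 was lost in 10 alternatives, among them those without BASC replicate 1, either AT2 sample or either Club sample (adjusted p from 0.0616 to 0.234).

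Other Hes and Hey genes went in both directions. Hes2 had 265 and 136 in the BASC samples, 414 and 220 in the AT2 samples and 11 and 17 in the Club samples, and was higher than in Club cells in BASC (14.3-fold, adjusted p = 0.00924) and AT2 (22.6-fold, adjusted p = 0.00275). Hes3 had 43 and 50 in AT2, 12 and 5 in the BASC samples and 0 in both Club samples. That is at least 16.6-fold higher in AT2 than in Club cells (adjusted p = 0.0121). Outside AT2 only BASC replicate 1 reached the filter minimum of 10, so Hes3 passed the filter only through the AT2 samples. This set its direction against Club cells, and the value is a description. Hey2, with 27 and 29, and Heyl, with 39 and 16, were found in Club cells and listed at 0 in all BASC and AT2 samples. Hey2 was at least 8.28-fold lower in BASC and at least 10.2-fold lower in AT2, and Heyl at least 8.13-fold and at least 10.002-fold lower. These bounds differ between BASC and AT2 only through the floor of 3 reads per library. The fitted log2 fold change was the same in both, -4.86 for Hey2 and -4.70 for Heyl. Both genes passed the filter only through the 2 Club samples, which fixed their direction, so these values are a description. Nrarp, which limits Notch signalling and is itself a target, had 147 and 170 in Club cells, 60 and 27 in BASC and 20 and 7 in AT2, and was lower in AT2 than in Club cells (11.7-fold, adjusted p = 0.0243). Hes6 had between 167 and 212 in the 6 samples and was not called. Hes7 was not tested (at most 38), and Hes5 was not found in the deposited table. Hey2 and Heyl are also known from vessels. Of 12 endothelial markers, 6 were not found in the deposited table. The other 6 summed to 764 and 623 in the BASC samples, 76 and 83 in the AT2 samples and 5584 and 5953 in the Club samples. Both Club samples were highest for 2 of the 6. These were Kdr, a VEGF receptor gene, with 5510 and 5892 in Club cells, 689 and 517 in BASC and 1 and 0 in AT2, and Vwf, with 63 and 32, 15 and 2, and 0 in both. For 3 of the 6, both Club samples were lowest: Pecam1 had 3 and 6 there, Tek 6 and 12 and Egfl7 2 and 4. Tie1 had 0 and 7 in Club cells and 8 or less elsewhere. The part of endothelial RNA was not tested.

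Several of these low-count calls were lost when a single sample was left out. The Hey2 and Heyl calls in BASC were lost without either BASC sample, and those in AT2 without either AT2 sample. Their log2 fold changes stayed at -4.86 and -4.70 in these fits. The Hes2 call in BASC was lost without BASC replicate 1 (adjusted p = 0.0673), that of Hes3 without AT2 replicate 2 or either Club sample (0.0550 to 0.112), and that of Nrarp without AT2 replicate 2 or either Club sample (0.0737 to 0.165).

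Of the genes for ligand uptake, 1 of 4 was called against Club cells in BASC (25.0%, where 11.2% of all genes were called) and in AT2 (25.0%, against 18.1%). Between AT2 and Club cells, 1 of 10 cleavage genes (10%) and 1 of 11 turnover genes (9.09%) were called, against the same 18.1%, and none of either list between BASC and Club cells. Neurl1b, a ubiquitin ligase acting on ligands, had 274 and 206 in Club cells, 27 and 12 in BASC and 26 and 22 in AT2, and was lower in BASC (12.3-fold, adjusted p = 0.0212) and AT2 (log2 fold change -3.26 ± 0.73, 0.0218). The called cleavage gene was Adam17, a protease that can cut Notch, which had 990 and 817 in the BASC samples, 1294 and 1133 in the AT2 samples and 683 and 643 in the Club samples and was 1.83-fold higher in AT2 than in Club cells (adjusted p = 0.0152). Adam17 shares 311 exon bases with Iah1 on the opposite strand, which had 1110 and 1102 in the AT2 samples and 137 and 98 in the Club samples, and the part of shared reads was not tested there either. The called turnover gene, Dtx3, of the Deltex family, had 580 and 472 in AT2, 213 and 196 in BASC and 249 and 275 in Club cells, and was 2.01-fold higher in AT2 than in Club cells (adjusted p = 0.0360). Eogt, which adds sugar to Notch repeats, had 618 and 564 in the BASC samples, 417 and 320 in the AT2 samples and 799 and 937 in the Club samples, and was 2.36-fold lower in AT2 than in Club cells (adjusted p = 0.00805).

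Each of these calls was lost without some samples. For Neurl1b, the BASC call was lost without BASC replicate 2 or either Club sample (adjusted p from 0.0653 to 0.221) and the AT2 call without either AT2 or either Club sample (0.0556 to 0.212). Adam17 lost its call without AT2 replicate 1 or either Club sample (0.0694 to 0.0974), Dtx3 without either AT2 or either Club sample (0.0681 to 0.246), and Eogt without Club replicate 2 (0.0724). Without the trend, the calls of Adam17 (0.114), Dtx3 (0.0867) and Eogt (0.0629) were also lost, as was that of Maml3 in BASC (0.127).

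**Figure D4:**
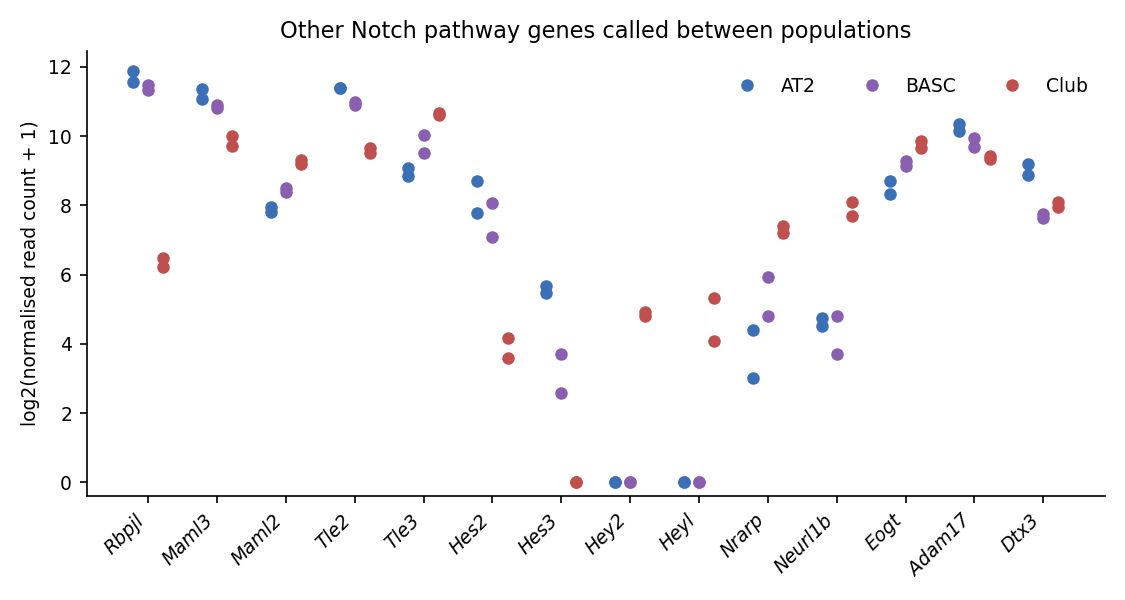
Level on the log2(normalised read count + 1) scale (y axis) of the 14 other pathway genes named as called, in each of the 6 samples, coloured by population. Rbpjl, Hes2 and Hes3 are lowest in both Club samples, while Hey2 and Heyl are above 0 in the Club samples and at 0 in the other 4.

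For each member, the genes with the nearest pattern were sought by the root mean square difference of centred log2 profiles over the 6 samples, among genes with a mean of at least 100. Notch3 was nearest to Ttc21a (difference 0.36 log2 units) and Cfap54 (0.42), which are genes of cilia. Ttc21a had 827 and 819 in Club cells, 47 and 22 in BASC and 5 and 21 in AT2. Notch2 was nearest to the transcription factor gene Cebpb (0.04) and to Tnks1bp1 (0.06), and Notch1 to Dnajb14 (0.06) and Zfp651 (0.07). Hes1 was nearest to the protease gene Tmprss2 (0.14), with 1767 and 1549 in Club cells, 1033 and 807 in BASC and 373 and 419 in AT2, and to Reps2 (0.14). Hey1 was nearest to the claudin gene Cldn4 (0.42) and to Etv1 (0.47), and Jag1 to Fam219b (0.09) and the chloride channel gene Clic3 (0.11). Jag2 was nearest to Myadm (0.06) and Tmco6 (0.07), Rbpj to Rpl13 (0.08) and Xrcc4 (0.08), and Lfng to Sorbs2 (0.96) and Jam2 (1.11). With 6 samples in 3 populations, these distances describe the profiles and carry no test.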

How the data were processed

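RNA from 6 sorted samples was made into libraries with a SMARTer kit (stranded, total RNA, very low input), per the labels' protocols. Per the submitters' processing notes, the tools were FastQC, STAR 2.4.0a and featureCounts 1.4.5-p1 of Subread, with mm10 (GRCm38). The deposited signal values are gene read counts that the authors scaled per sample and rounded to whole numbers, as the spacing of low values shows. How the counts were normalised, whether strand was used in counting and which annotation was counted are points not given in the sources used here. No gene had a highest value under 7.

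A gene entered the analysis where 2 or more samples reached 10, as log2(value + 1). The added 1 shrinks the fitted log2 fold changes of low genes. As these compare means of logs, they can lie on either side of the ratio of population means. One model held all 6 samples by population, in limma 3.58.1 under R 4.3.3 (eBayes with trend, 2-sided, 3 residual and 4.20 prior degrees of freedom), with adjustment over all genes tested; the script was tested on simulated data. A fold is the ratio of 2 population means. Rounded values do not give the whole reads back, so no count model was run. An exact permutation test of 2 against 2 samples cannot go below p = 0.333.

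Same-numbered samples did not deviate together across genes, and the main fit held no replicate block. This does not show whether they came from the same animals. The members, gene lists and tests were chosen with earlier results of these data known. Named were the 9 members, the other pathway genes called in a pairwise comparison whose higher population averaged 50 or more (at most 4 per role), the remaining receptor, ligand, fringe and Hes or Hey family genes, and the 2 nearest patterns per member among genes whose symbols are not predicted-gene or clone names. Alternatives changed the pseudocount, filter, scaling, trend, groups fitted, replicate block and samples. The setting with protein-coding nuclear genes changed the genes tested and the scaling together, and fitting only the populations compared also changed which genes passed the filter.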

Additional observations from a re-analysis of the deposited data

How the results depend on the processing

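Of 176 alternative values of the 11 called member differences, 149 stayed past the threshold and 27 did not, with no change of sign; of the calls of other pathway genes, 296 stayed and 58 did not. Genes with few reads carry wide errors: Lfng, Hey1, Hey2, Heyl and Hes3 rest on values under 150 in every sample.

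For BASC against AT2, 112 genes were called, with 265 under the filter of at least 50 and 197 with protein-coding nuclear genes alone, a setting that also rescales the samples to equal totals of these genes. Members called there, 1 in the fit as reported, numbered 2 with a pseudocount of 5, under the stricter filter, after quantile normalisation and with protein-coding genes, and 0 without the trend and with 2 groups fitted. Without the trend, calls against Club cells numbered 1183 genes and 1 member in BASC (1983 and 4 as reported) and 2028 genes in AT2 (3212 as reported), and calls from the midpoint included 2 other pathway genes (1 as reported). The midpoint comparison called 286 genes, or 455 under the stricter filter. The cause of these moves was not tested. Under the stricter filter 12540 genes were fitted, against 17721 in the fit as reported, and the part of this smaller number was not separated.

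With each sample left out in turn, genes called ranged from 3 to 112 for BASC against AT2, from 853 to 1888 for BASC against Club cells, from 1539 to 3291 for AT2 against Club cells and from 4 to 278 for the midpoint. Members called ranged from 0 to 1, 2 to 4, 4 to 6 and 0 to 1, and other pathway genes from 0 to 0, 3 to 7, 5 to 15 and 0 to 1. The 1 member called from the midpoint was Notch3 (-2.08, adjusted p = 0.0462, without AT2 replicate 1). In these fits the lone sample is assumed to vary like the other groups.

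The sign changed for some differences that were not called. Jag2 in BASC against AT2 (-0.02) was 0.0041 with upper-quartile scaling and 0.0261 with protein-coding genes, and ranged from -0.37 to 0.32 with a sample left out. Lfng in BASC against AT2 ranged from -3.81 to 0.0, the latter without AT2 replicate 2, where all remaining samples of both populations were at 0. From the midpoint, with a sample left out, Notch1 ranged from -0.28 to 0.0834 and Jag2 from -0.0968 to 0.60, and Hes1 was -0.0037 after quantile normalisation. The median of all genes in AT2 against Club cells was -0.10 as reported, 0.03 after quantile normalisation and -0.22 with protein-coding genes.

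Same-numbered samples did not deviate together (r of replicate differences across genes from 0.006 to 0.0118). Whether they came from the same animals cannot be told from these correlations. With a replicate block the genes called were 120, 1861, 3045 and 280 in the 4 comparisons and the members called 1, 4, 6 and 0; Tle3 (adjusted p = 0.0534) and Heyl (0.0584) in BASC against Club cells and Dtx3 (0.0520) in AT2 against Club cells were not called under the block.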
